A study of Mus musculus with 16 samples.

Results

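Adipocyte and lipogenesis genes were followed across 16 arrays of mouse uterus RNA. The set holds 36 named genes of the fat cell, from its secreted hormones and droplet proteins to the enzymes that make and break down triglyceride. They were taken as spots of the array design whose RefSeq accession maps to a member's symbol. A probe was matched for 34 of the 36, and Adrb3 and Pck1 are not analysed here. Of these 34, 33 were measured by a probe well above background on at least 4 arrays, and Ucp1 was not well above background on any of the 16. The fit of all genes held 31 of them among 24666 genes and unnamed targets. Scd2 and Thrsp each lacked a value on 1 array, so they were fitted with that value missing.

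The study asked, per its title, about early genistein exposure and glucocorticoid signaling in the uterus. Whole uteri came from 4 groups with 4 arrays each. Dexamethasone-treated controls (SalD) and vehicle-treated controls (SalV) had only the carrier as newborns, which the sample labels call saline and the design text calls corn oil (20 µl). Mice dosed with genistein (50 mg/kg), an estrogen-receptor-binding isoflavone of soy, on postnatal days 1 to 5 were later given dexamethasone (GenD) or vehicle (GenV). Dexamethasone, a synthetic glucocorticoid, was injected at 1 mg/kg, the vehicle was 100 µl of saline, and uteri were taken 4 h later, at 8 weeks of age. All 4 groups, controls included, had lost adrenals and ovaries at 6 weeks. The mice therefore lacked the main sources of corticosterone and ovarian estrogen, which limits them as a model of the intact uterus. The labels give no mouse strain and do not say whether each replicate is 1 animal, so the p-values measure the spread between these samples.

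White adipocytes store triglyceride in a large lipid droplet and secrete hormones such as leptin and adiponectin. Fatty acids reach the droplet from lipoproteins in blood, through lipoprotein lipase and carriers, or from synthesis out of acetyl-CoA, and lipases release them again. Glucocorticoids are known to act on adipocytes directly, and they induce leptin and adipose triglyceride lipase in cultured fat cells. The uterus lies beside parametrial fat, and adipocytes are not a main cell type of the uterine wall. In whole-organ RNA, fewer cells of a type and less RNA per cell cannot be told apart.

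The gene starts of 4 members are shown because the comparisons turn on them. Adipoq marked the arrays' fat cell RNA, and the differences of Lep and Plin1 from Adipoq are described further on. Pnpla2 had a small slope, pooled over the groups, on the arrays' level of fat cell markers. Each sequence is the RefSeq promoter window of GRCm38.p6, from 250 bases before to 50 bases after the start, 5′ to 3′ on the gene's strand. Adipoq is at chr16:23146286-23146585 (+), Lep at chr6:29059971-29060270 (+), Plin1 at chr7:79732727-79733026 (−) and Pnpla2 at chr7:141454938-141455237 (+). Capitals mark matches on either strand to the motifs searched.
Adipoq: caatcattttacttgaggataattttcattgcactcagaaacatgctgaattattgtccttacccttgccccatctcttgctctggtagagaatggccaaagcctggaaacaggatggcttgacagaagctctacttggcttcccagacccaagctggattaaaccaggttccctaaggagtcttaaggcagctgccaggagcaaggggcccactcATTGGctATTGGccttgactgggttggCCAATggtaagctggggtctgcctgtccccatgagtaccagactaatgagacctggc
Lep: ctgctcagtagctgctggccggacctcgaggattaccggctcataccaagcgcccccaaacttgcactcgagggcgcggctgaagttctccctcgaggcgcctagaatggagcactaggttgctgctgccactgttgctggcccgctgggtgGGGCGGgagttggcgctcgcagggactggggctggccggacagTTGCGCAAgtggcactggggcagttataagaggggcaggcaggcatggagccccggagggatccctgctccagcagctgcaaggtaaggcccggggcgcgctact
Plin1: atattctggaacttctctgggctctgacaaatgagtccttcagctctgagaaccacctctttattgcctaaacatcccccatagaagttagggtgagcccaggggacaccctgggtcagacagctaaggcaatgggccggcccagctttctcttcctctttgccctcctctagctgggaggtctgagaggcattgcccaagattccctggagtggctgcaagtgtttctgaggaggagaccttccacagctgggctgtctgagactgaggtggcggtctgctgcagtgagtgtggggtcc
Pnpla2: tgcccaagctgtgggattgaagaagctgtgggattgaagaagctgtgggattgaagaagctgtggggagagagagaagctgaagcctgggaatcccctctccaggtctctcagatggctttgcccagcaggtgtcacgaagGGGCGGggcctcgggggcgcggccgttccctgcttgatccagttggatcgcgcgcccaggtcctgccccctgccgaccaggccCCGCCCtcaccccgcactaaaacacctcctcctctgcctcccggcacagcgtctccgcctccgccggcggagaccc
The Adipoq window held 3 matches to CCAAT, the letters of the CCAAT box, which 37.4% of 32851 promoters hold. The Lep window held GGGCGG, a GC box found in 35.7% of promoters, and TTGCGCAA, the palindrome recognised by C/EBP factors, found in 0.183%. The Pnpla2 window held 2 GC boxes, and the Plin1 window held no match to any motif searched. The others searched were TATAAA (13.6% of promoters), the nuclear receptor core AGGTCA (16.3%), the glucocorticoid receptor core ACANNNTGT (6.85%) and the E-box CACGTG (7.15%). Over 29 promoters listed for 23 of the members, these 7 motifs were found in 12 for CCAAT, 13 for GGGCGG, 9 for AGGTCA, 2 for TATAAA and 1 each for ACANNNTGT, CACGTG and TTGCGCAA. No marked letters overlap, and a match is a description of the letters only.

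Signals are given as scaled log2 signal: log2 of the processed spot signal minus that array's 75th percentile, so that 0 is the 75th percentile. The 75th percentile ranged from 948 to 2719 intensity units over the 16 arrays, and between 68.9% and 81.3% of an array's spots stood well above background. Values of different genes come from different probes and are not set against each other. Of the lists of uterine cell markers, 9 of 10 smooth muscle genes, 10 of 10 epithelial genes and 9 of 10 stromal genes were measured and entered the fit. The adipocyte markers Adipoq, Retn, Fabp4, Cidec, Plin1, Cfd and Pparg were well above background on all 16 arrays, so the uterine samples carried fat cell transcripts in every group. Lep was also on the list of adipocyte markers. It was well above background on 4 SalD, 1 SalV, 3 GenD and 4 GenV arrays, and it was left out of the marker level used below. The 9 measured glucocorticoid targets passed the test upward in 8 cases in SalD against SalV and in 9 cases in GenD against GenV. Of all genes 8.44% and 2.49% rose in these comparisons, so the targets go with the dexamethasone labels. The list was chosen with earlier results of these data known, so this is not an independent check of the labels.

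Some arrays stood apart for these genes within their own group. SalD array 1 was the lowest of its group for 25 of the 31 fitted members, against 25.8% of all genes, and GenD array 1 was the lowest for 24, against 23.7% of all genes. SalV array 4 was the lowest for 21 members (24.7% of all genes) and GenV array 2 for 20 (19.8%). At the top, SalD array 2 was highest for 21 members (32.1% of all genes), SalV array 1 for 24 (36.6%) and GenV array 4 for 19 (21.5%). The median within-group SD was 0.64 log2 units over the members and 0.37 over all genes tested. The 10 members Lep, Adipoq, Retn, Cfd, Orm1, Plin1, Cidec, Fabp4, Mrap and Car3 each varied within groups by more than 95% of all genes did.

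**Figure D1:**
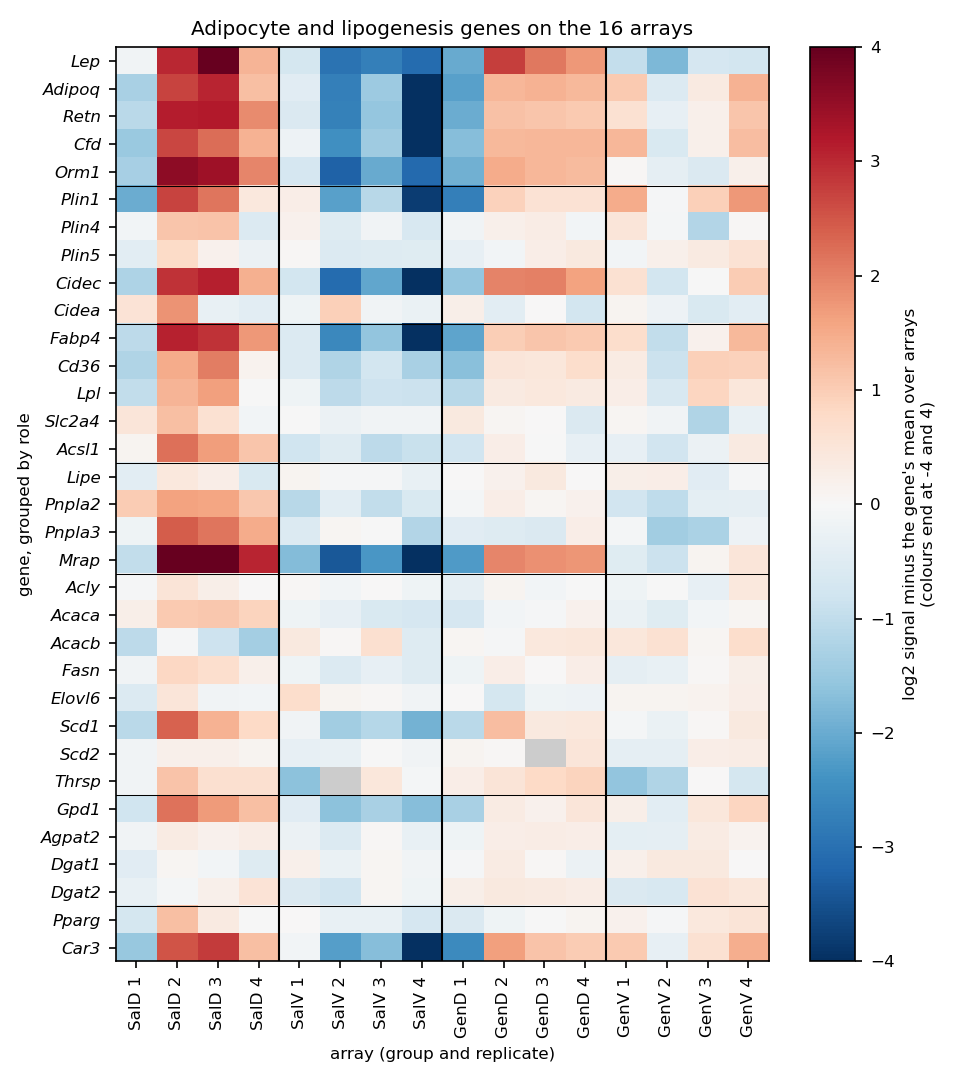
Colours show the scaled log2 signal of each measured gene (rows, grouped by role) minus its mean over arrays, on each array (columns, by group and replicate); grey marks a missing value. SalD arrays 2 and 3 are high and SalV array 4 is low for the genes that varied most, and SalD array 1 and GenD array 1 are low within their groups.

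A summary of this spread was taken as the median of the 7 adipocyte markers other than Lep, each centred on its mean over the 16 arrays. This marker level ran from −1.23 to 2.88 in SalD (median 2.05) and from −5.09 to −0.44 in SalV (median −2.02). In GenD it ran from −1.99 to 1.17 (median 1.08), and in GenV from −0.56 to 1.23 (median 0.45). The SalD and SalV ranges overlap, because SalD array 1 lies below the highest SalV array. The GenD range encloses nearly the whole GenV range.

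In dexamethasone-treated controls the fat cell genes were higher than in vehicle-treated controls. Of 31 members fitted, 16 rose and 1 fell at an adjusted p below 0.05 (limma, two-sided, Benjamini-Hochberg over all 24666 genes), where 8.44% of all genes rose and 14.6% fell. The members' median log2 fold change was 1.57, against −0.16 for all genes. With arrays scaled to their median instead, calls over all genes numbered 3431 higher and 1866 lower, in place of 2081 higher and 3589 lower, and the members' median was 1.79. SalD arrays 2 and 3 were the highest of their group for 21 and 9 members, so leaving them out lowers the difference by construction. Without them the members' median was 0.93, against −0.16 for all genes. With these arrays left out 3 members rose (Pnpla2, Acsl1 and Acaca) and 1 fell (Acacb), where 4.44% of all genes rose and 10.1% fell. Fewer arrays also lower the number of calls by themselves. Without SalD array 3 alone, 10 members were called, beside 1410 higher and 2695 lower over all genes, and the members' median was 1.16.

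The 5 secreted products all rose. Lep, which encodes the satiety hormone leptin, had scaled log2 signals of −5.65, −2.49, −0.71 and −4.15 on the SalD arrays, against −6.23, −8.46, −8.25 and −8.59 on the SalV arrays. Every SalD value lay above every SalV value, and Lep was well above background on 4 SalD arrays but on only 1 SalV array. The fitted log2 fold change was 4.63 (SE 1.07, adjusted p = 0.00841), a size that rests on 3 SalV values not well above background, and it was 0.92 (adjusted p = 0.369) after normexp background correction. Adipoq, which encodes adiponectin, read −0.57, 3.43, 3.75 and 1.91 in SalD, against 0.28, −2.01, −0.75 and −4.37 in SalV. SalD array 1 fell within the SalV range, and the log2 fold change of 3.84 (SE 1.12, adjusted p = 0.0252) rests on the other SalD arrays. Adipoq missed the threshold under 8 of 21 alternative settings.

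Retn, which encodes the adipokine resistin, read −1.45, 2.76, 2.81 and 1.51 in SalD, against −0.94, −3.08, −1.92 and −5.53 in SalV, a log2 fold change of 4.27 (SE 1.07, adjusted p = 0.0124). Its second probe gave 3.99. Cfd, the complement factor adipsin, and Orm1, the acute-phase protein orosomucoid, had log2 fold changes of 3.49 (adjusted p = 0.0326) and 4.15 (adjusted p = 0.0105). Cfd missed the threshold under 8 of 21 alternative settings, and Orm1 was well above background on 1 SalV array only. For each of these 3 genes SalD array 1 lay inside the SalV range, as it did for Adipoq.

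Among the 5 droplet proteins, only Cidec passed the test. Cidec, which fuses lipid droplets in white fat, read 0.11, 4.23, 4.46 and 2.75 in SalD, against 0.60, −1.75, −0.73 and −3.90 in SalV, with a log2 fold change of 4.33 (SE 1.09, adjusted p = 0.0129). Plin1, the perilipin that coats the adipocyte droplet and restrains lipolysis, read −3.68, 1.00, 0.43 and −1.28 in SalD, against −1.43, −3.87, −2.83 and −5.50 in SalV. The log2 fold change of 2.53 (95% interval 0.21 to 4.84) had an adjusted p of 0.104. Plin4, Plin5 and Cidea had log2 fold changes of 0.67, 0.46 and 0.32, with adjusted p-values from 0.212 to 0.627.

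Of the 5 carriers and uptake genes, Fabp4 and Acsl1 rose. Fabp4, the fatty acid carrier of the adipocyte cytosol, read 2.38, 6.51, 6.33 and 5.19 in SalD, against 2.90, 0.87, 1.85 and −0.70 in SalV, a log2 fold change of 3.87 (SE 1.00, adjusted p = 0.0146). Its other probes gave 3.70 and 4.45. Acsl1, which links fatty acids to coenzyme A, read −1.92, 0.18, −0.36 and −0.91 in SalD, against −2.83, −2.56, −3.08 and −2.93 in SalV. All SalD values were above all SalV values, with a log2 fold change of 2.09 (SE 0.38, adjusted p = 0.00229), and its second probe gave 1.15. Cd36, a fatty acid transporter, Lpl, the lipase that frees fatty acids from lipoproteins, and Slc2a4, the insulin-responsive glucose transporter, had log2 fold changes of 1.57, 1.23 and 0.68, with adjusted p-values from 0.106 to 0.116.

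**Figure D2:**
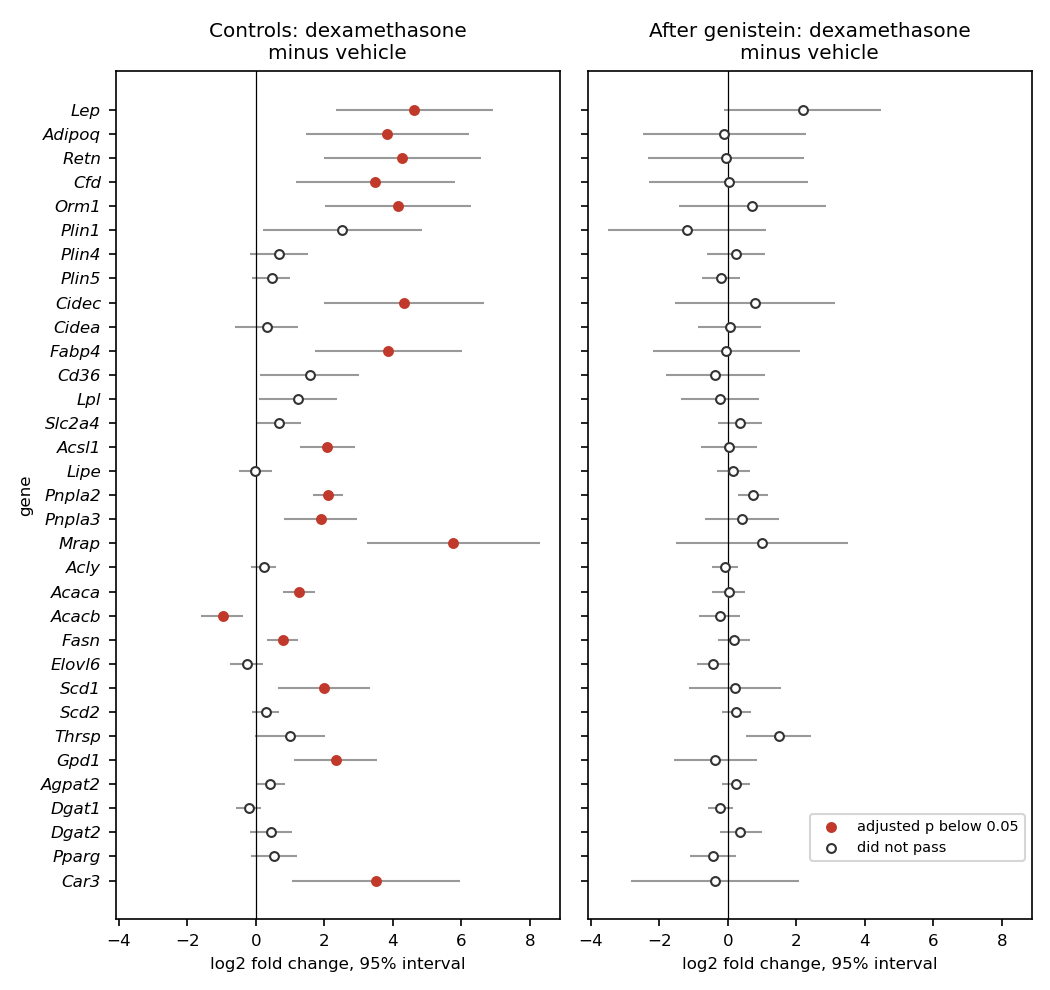
Points show the log2 fold change of each measured gene, dexamethasone minus vehicle, with 95% intervals, in controls (left) and after neonatal genistein (right); filled points passed an adjusted p below 0.05. In controls 16 genes passed upward and 1 (Acacb) downward, and after genistein none passed.

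Of the 4 measured lipolysis genes and receptors, Pnpla2, Pnpla3 and Mrap rose. Pnpla2, adipose triglyceride lipase, which starts the breakdown of stored fat, read 4.50, 5.08, 5.05 and 4.56 in SalD, against 2.37, 3.07, 2.49 and 2.87 in SalV. The groups were well apart, with an SD of 0.28 within groups, and the log2 fold change was 2.10 (SE 0.20, adjusted p = 3.94e-05), or 4.29-fold. It passed the test under all 22 alternative settings, and its second probe gave 1.12. Mrap, the accessory protein that carries the ACTH receptor to the cell surface, read −2.82, 2.41, 2.13 and 1.20 in SalD, against −3.57, −5.24, −4.18 and −7.19 in SalV. Its log2 fold change of 5.77 (SE 1.17, adjusted p = 0.00447) was the largest among the members, and it was well above background on 3 of 4 SalV arrays.

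Pnpla3, a lipid droplet acylhydrolase best known for its human variant in fatty liver, read −6.11, −3.53, −3.80 and −4.46 in SalD, against −6.49, −5.87, −5.96 and −7.12 in SalV. Its change was 1.89 on the log2 scale (SE 0.50, adjusted p = 0.0169), but only 2 SalV arrays were well above background and the value turned to −0.22 after normexp background correction. Lipe, hormone-sensitive lipase, which acts on diglyceride after Pnpla2, had a log2 fold change of −0.02 (95% interval −0.50 to 0.47). Its second probe gave 0.82, so the probes of Lipe disagreed.

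Fatty acid synthesis did not move as a block. Acaca, the cytosolic acetyl-CoA carboxylase that makes malonyl-CoA for synthesis, read −1.59, −0.79, −0.74 and −0.94 in SalD, against −1.99, −2.14, −2.45 and −2.49 in SalV, a log2 fold change of 1.25 (SE 0.22, adjusted p = 0.0021). Its 3 other probes gave −0.89, 0.14 and 0.72. Acacb, the mitochondrial carboxylase whose malonyl-CoA restrains fatty acid oxidation, read −0.58, 0.41, −0.38 and −0.90 in SalD, against 0.86, 0.51, 1.11 and −0.05 in SalV. It was the only member that fell, by 0.97 on the log2 scale (SE 0.29, adjusted p = 0.0262), and it missed the threshold under 10 of 22 alternative settings.

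Fasn, fatty acid synthase, read 5.02, 6.01, 5.84 and 5.38 in SalD, against 4.99, 4.62, 4.86 and 4.67 in SalV. The groups did not overlap, though SalD array 1 and SalV array 1 nearly touched, and the log2 fold change was 0.78 (SE 0.21, adjusted p = 0.0193). Scd1, the desaturase that makes oleate, read 1.16, 4.59, 3.64 and 3.04 in SalD, against 2.09, 0.87, 1.12 and 0.36 in SalV, a log2 fold change of 2.00 (SE 0.62, adjusted p = 0.0341) that missed the threshold under 9 of 22 alternative settings. Acly, which supplies acetyl-CoA from citrate, and Elovl6, which lengthens palmitate, had log2 fold changes of 0.23 and −0.26 and did not pass. Scd2, a second desaturase, and Thrsp, a lipogenic nuclear protein, had log2 fold changes of 0.29 (adjusted p = 0.268) and 1.00 (adjusted p = 0.141), with GenD array 3 missing for Scd2 and SalV array 2 missing for Thrsp.

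Of the 4 measured triglyceride genes, Gpd1 rose. Gpd1, which makes glycerol 3-phosphate, read 0.69, 3.64, 3.19 and 2.68 in SalD, against 1.04, −0.16, 0.20 and −0.22 in SalV, a log2 fold change of 2.33 (SE 0.57, adjusted p = 0.0112). Agpat2, Dgat1 and Dgat2, acyltransferases of triglyceride assembly, had log2 fold changes of 0.42, −0.21 and 0.45, with adjusted p-values from 0.126 to 0.404. Dgat2 read 4.56, 4.75, 5.04 and 5.39 in SalD, against 4.27, 4.08, 4.91 and 4.66 in SalV, and the groups overlapped.

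Car3, a carbonic anhydrase abundant in fat, read −0.47, 3.58, 3.84 and 2.24 in SalD, against 0.94, −1.14, −0.65 and −3.98 in SalV, a log2 fold change of 3.51 (SE 1.15, adjusted p = 0.0407). It missed the threshold under 11 of 22 alternative settings. Pparg, the nuclear receptor that drives fat cell differentiation, read −2.06, −0.18, −1.0 and −1.38 in SalD, against −1.35, −1.67, −1.68 and −2.04 in SalV. The log2 fold change of 0.53 (95% interval −0.14 to 1.20) did not pass, with an adjusted p of 0.233.

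**Figure D3:**
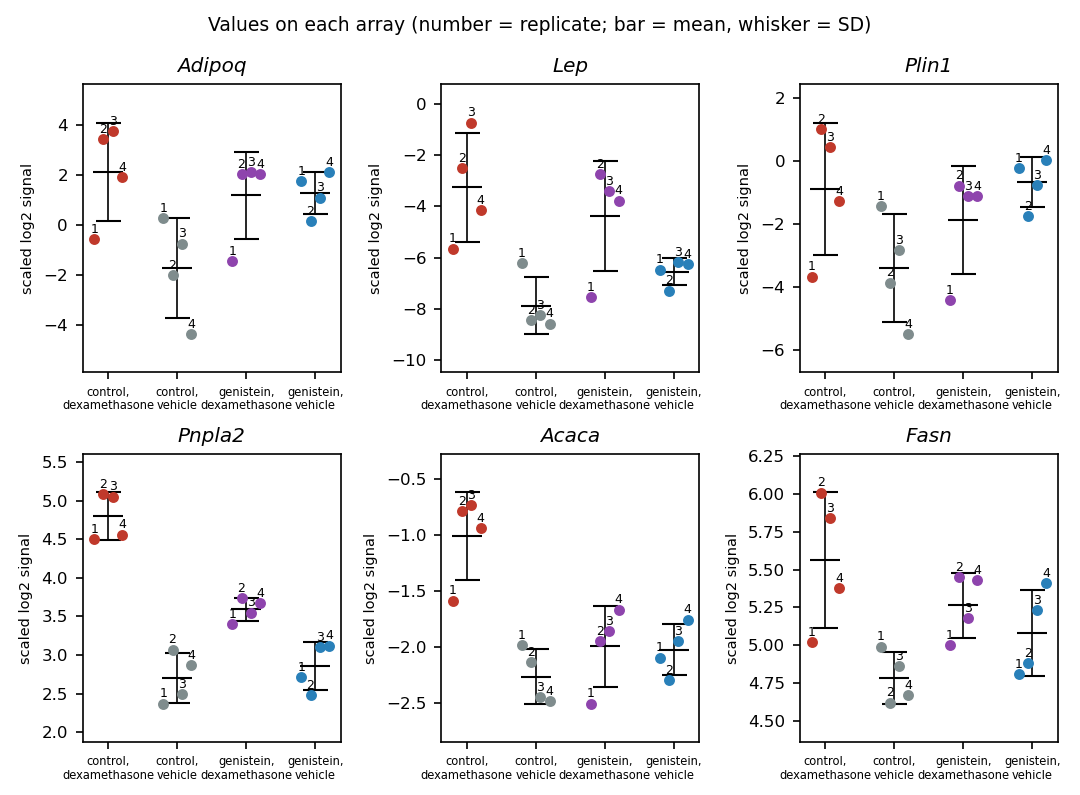
Points show the scaled log2 signal of 6 genes on each array, numbered by replicate, with the mean (bar) and SD (whisker) of each group of 4. Pnpla2 separates SalD from SalV with little spread, while Adipoq, Lep and Plin1 range over several log2 units within a group.

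After neonatal genistein, no member passed the test for dexamethasone. In GenD against GenV, 0 of 31 members rose and 0 fell (limma), where 2.49% of all genes rose and 2.79% fell. At an unadjusted p below 0.05 there was 1, Pnpla2, against 4440 of all 24666 genes, and the members' median log2 fold change was 0.03, against −0.01 for all genes. Pnpla2 read 3.40, 3.74, 3.55 and 3.67 in GenD, against 2.71, 2.48, 3.10 and 3.12 in GenV. All GenD values were above all GenV values, and the log2 fold change of 0.74 (SE 0.20) just missed the threshold with an adjusted p of 0.0506.

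Lep read −7.54, −2.74, −3.40 and −3.77 in GenD, against −6.47, −7.30, −6.17 and −6.26 in GenV. GenD arrays 2 to 4 lay far above GenV, while GenD array 1 was below it and not well above background, and the log2 fold change was 2.19 (SE 1.07, adjusted p = 0.306). Without SalD array 1 and GenD array 1, a choice made after the data were seen, the Lep value became 3.25 (limma, adjusted p = 0.0301). Lep was then the only member called. GenD array 1 was left out because it was low for these genes, which raises the GenD mean by construction, so this p is not read as support. Adipoq read −1.45, 2.04, 2.10 and 2.02 in GenD, against 1.76, 0.16, 1.09 and 2.10 in GenV, a log2 fold change of −0.10 (95% interval −2.49 to 2.29).

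Plin1 read −4.43, −0.79, −1.13 and −1.12 in GenD, against −0.23, −1.76, −0.76 and 0.03 in GenV, with a log2 fold change of −1.19 (adjusted p = 0.648). Thrsp read 3.18, 3.41, 3.70 and 3.80 in GenD, against 1.34, 1.70, 2.91 and 2.20 in GenV. All GenD values of Thrsp were higher, with a log2 fold change of 1.49 (SE 0.44) and an adjusted p of 0.0707 in the fit with its SalV value missing. Acaca and Fasn had log2 fold changes of 0.03 and 0.18, with 95% intervals of −0.45 to 0.50 and −0.28 to 0.64.

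The difference between these dexamethasone effects was tested directly. No member passed (0 of 31, limma), nor did any gene of the whole table (0% called, 3833 at an unadjusted p below 0.05), while 14 members were below 0.05 unadjusted. The estimate, the effect after genistein minus the effect in controls, was negative for 29 of 31 members, with a median of −1.46 against 0.13 for all genes. The smallest adjusted p was that of Pnpla2, at −1.36 (SE 0.29, unadjusted p = 0.000309, adjusted p = 0.162). Acsl1 followed at −2.06 (SE 0.53) and Acaca at −1.22 (SE 0.31), each with an adjusted p of 0.171 (limma). Other probes gave −0.36 for Pnpla2, −0.98 for Acsl1, and 0.30, 0.40 and −1.17 for Acaca, so the probes of Acaca disagreed. The members' median was −0.77 without SalD arrays 2 and 3, −0.57 under normexp and −1.96 without SalD array 1. The dexamethasone effects are thus not shown to differ between genistein and control mice for any member.

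Genistein by itself was compared under vehicle. In GenV against SalV no member passed the test (0 of 31, limma), and 0.00405% of all genes did. At an unadjusted p below 0.05 there were 10 members, against 3430 of all 24666 genes. Of the 31 estimates, 27 were positive, with a median of 0.58 against 0.05 for all genes. This comparison shares the SalV arrays with SalD against SalV, so a low SalV array raises both. Without SalV array 4, the lowest for most members, the members' median was 0.54 here, and 1.45 in place of 1.57 in SalD against SalV. Cidec read 1.94, 0.61, 1.34 and 2.36 in GenV, against 0.60, −1.75, −0.73 and −3.90 in SalV, all GenV values above all SalV values. Its log2 fold change was 3.01 (95% interval 0.68 to 5.34) with an adjusted p of 0.344, a value that several members shared and none went below.

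Under dexamethasone, genistein-exposed uteri had lower values of 4 members than controls. In GenD against SalD, Acsl1, Pnpla2, Pnpla3 and Acaca fell and Acacb rose, 4 and 1 of 31, where 6.39% of all genes fell and 16.6% rose. With slide as a fixed block only Pnpla2 was called and the members' median was −0.06 in place of −0.63. Without SalD arrays 2 and 3 only Pnpla2 and Acacb were called and the median was 0.19. Those arrays were the high ones for the members, so leaving them out raises this median by construction. With quantile normalization the calls over all genes were 3019 higher and 2347 lower, in place of 4084 higher and 1576 lower. This comparison shares the SalD arrays with SalD against SalV. Pnpla2 read 3.40, 3.74, 3.55 and 3.67 in GenD, against 4.50, 5.08, 5.05 and 4.56 in SalD, with no overlap, a fall of 1.21 on the log2 scale (SE 0.20, adjusted p = 0.00368). Its second probe gave −0.09, so the probes of Pnpla2 disagree here.

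Acaca read −2.51, −1.95, −1.86 and −1.67 in GenD, against −1.59, −0.79, −0.74 and −0.94 in SalD. Its log2 fold change was −0.98 (SE 0.22, adjusted p = 0.00979), and it turned to 0.05 when the mean of its probes was used. Acsl1 read −2.81, −1.77, −2.04 and −2.37 in GenD, against −1.92, 0.18, −0.36 and −0.91 in SalD, a log2 fold change of −1.49 (SE 0.38, adjusted p = 0.0148). Its second probe gave −0.37, and the call was lost under 4 of 22 alternative settings. Pnpla3 had a log2 fold change of −1.79 (SE 0.50, adjusted p = 0.0229), with 2 of 4 GenD arrays well above background, and turned to 0.43 after normexp.

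Acacb read 0.53, 0.42, 0.87 and 0.91 in GenD, against −0.58, 0.41, −0.38 and −0.90 in SalD. The log2 fold change was 1.05 (SE 0.29, adjusted p = 0.0207). By the probes used, the carboxylases Acaca and Acacb moved in opposite directions in this comparison as in SalD against SalV. The other Acaca probes gave 0.99, 0.97 and −0.76 in GenD against SalD, so the probes of Acaca disagreed and the opposite direction is not settled. The hormones did not pass: Adipoq had a log2 fold change of −0.96 (95% interval −3.34 to 1.43), and Lep of −1.11 (95% interval −3.40 to 1.17).

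The sample labels name no slide or batch, and the barcode in each scan's name put the arrays on 5 slides. Slides that held both groups of a comparison were read by themselves. SalV array 3 was alone on slide 5, so a fixed slide block takes it out of the comparisons. The members' median log2 difference for SalD against SalV was 1.29, 0.40 and 2.52 on slides 1, 3 and 4, and Pnpla2 differed by 2.45, 1.42 and 2.19 there. For GenD against GenV the members' median was −0.22, −0.01 and 0.70 on slides 2, 3 and 4, and Pnpla2 differed by 0.77, 0.62 and 1.19. For GenV against SalV the members' median was 0.40, 1.15 and 0.58 on slides 1, 3 and 4. For GenD against SalD it was 0.76 on slide 3, which holds SalD array 1, and −1.23 on slide 4, while Pnpla2 was −0.76 and −1.38. With 1 or 2 arrays of a group per slide these values carry no test.

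The members differed in how closely they followed the arrays' marker level. With that level as a covariate beside the 4 group means, a choice made after the data were seen, Car3 had a slope of 1.07 (SE 0.04) and Mrap of 1.06 (SE 0.09), in log2 units of signal per log2 unit of marker level. Lep and Orm1 each had a slope of 0.85, Cd36 of 0.53, Scd1 of 0.52, Gpd1 of 0.47 and Lpl of 0.40. The synthesis enzymes other than Scd1 lay lower, with 0.16 for Acaca, 0.15 for Acacb, 0.14 for Fasn and 0.09 each for Acly and Elovl6. Pnpla2 had 0.04 (SE 0.05). Low slopes were not particular to synthesis: Slc2a4 had 0.01, Lipe 0.1, Plin5 0.15, Plin4 0.21 and the marker Pparg 0.23. By this slope, pooled over the 4 groups, Car3 and Mrap tracked the fat cell markers nearly unit for unit, while Pnpla2, Acly and Fasn hardly did. The pooled slope of Pnpla2 joins groups that went different ways. In SalD, GenD and GenV its lowest value was on the array with the lowest marker level. In SalV its lowest value was on array 1, where that level was highest. Slopes were not fitted group by group.

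**Figure D4:**
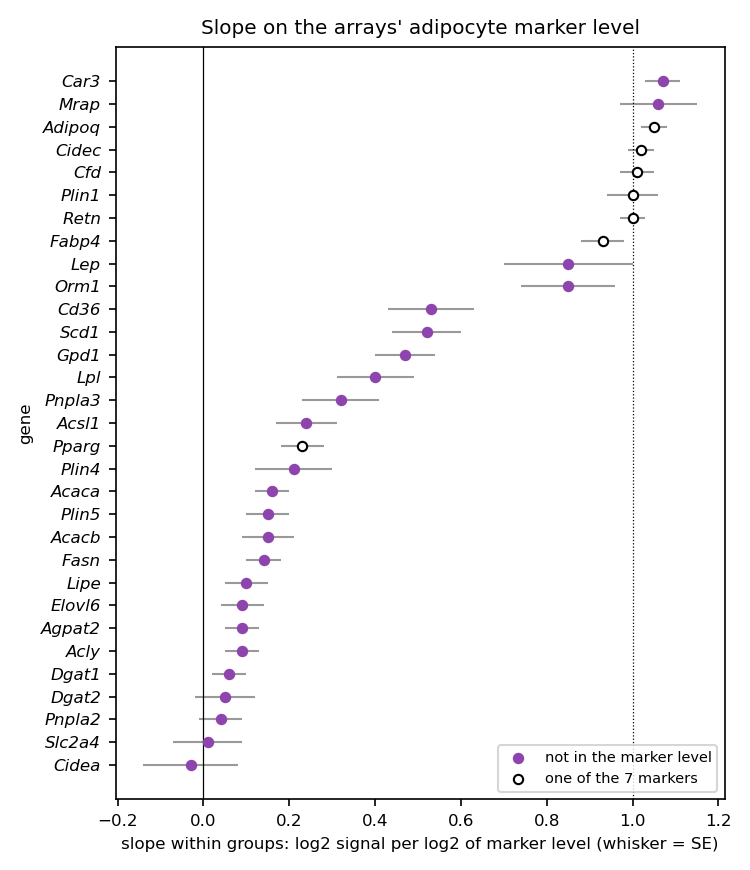
Points show each gene's slope within groups, in log2 signal per log2 unit of the adipocyte marker level, with SE; open points are the 7 markers that make up the level, whose slopes are near 1 (dotted line) by construction except Pparg. Car3 and Mrap sit at 1.07 and 1.06, and Pnpla2 at 0.04, each a single slope pooled over the groups.

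Of the 24 members outside the covariate, 3 then rose and 1 fell in SalD against SalV, where 5.27% of all genes rose and 9.63% fell. Pnpla2 was at 1.95 (SE 0.29, adjusted p = 0.00213), Mrap at 1.71 (SE 0.49, adjusted p = 0.034), Acaca at 0.63 (adjusted p = 0.0498) and Acacb at −1.56 (adjusted p = 0.0106). In GenD against SalD the same 5 members were called as without the covariate, where 17.7% of all genes rose and 7.71% fell, Pnpla2 at −1.16 and Acacb at 1.22. In GenD against GenV none of the 24 was called, where 2.46% of all genes rose and 2.77% fell. Marker level and dexamethasone moved together in the controls, so the covariate also takes up any effect of dexamethasone on the markers themselves.

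The 10 members with the widest spread were also read as differences from Adipoq on the same array, a choice made after the data were seen. The size of such a difference depends on the probes, and only its change between arrays is read. With 4 arrays a group, the smallest exact two-sided permutation p is 0.0286, and over the 36 tests (9 genes, 4 comparisons) no Benjamini-Hochberg value was below 0.1144, so none passed 0.05. Plin1 minus Adipoq averaged −3.01 ± 0.40 in SalD and −1.70 ± 0.41 in SalV (SD, n = 4 each), a difference of −1.32 (exact permutation p = 0.0286). It averaged −3.04 ± 0.18 in GenD and −1.96 ± 0.09 in GenV, a difference of −1.09 (exact permutation p = 0.0286). Relative to Adipoq, Plin1 was thus lower on every dexamethasone array than on every vehicle array within both neonatal treatments.

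Cidec minus Adipoq went the other way, at 0.76 ± 0.08 in SalD and 0.27 ± 0.19 in SalV, and at 1.18 ± 0.17 in GenD and 0.28 ± 0.12 in GenV (SD, n = 4 each). Mrap minus Adipoq was −1.40 ± 0.68 in SalD and −3.33 ± 0.43 in SalV, and −2.19 ± 0.31 in GenD and −3.30 ± 0.59 in GenV. Lep minus Adipoq was −5.38 ± 0.75 in SalD and −6.17 ± 1.39 in SalV, which overlapped, but −5.54 ± 0.56 in GenD and −7.83 ± 0.55 in GenV, which did not. Lep was not well above background on SalV arrays 2 to 4 and GenD array 1, so its differences there have no measured size. The overlap in controls rests on SalV array 4 (−4.22), where Adipoq was lowest. These ratios of Cidec and Mrap were higher on all dexamethasone arrays than on all vehicle arrays within each neonatal treatment. Mrap was well above background on only 3 of 4 SalV arrays. Retn minus Adipoq separated in controls (a difference of 0.43) but overlapped after genistein (0.05). Cfd, Orm1 and Car3 minus Adipoq overlapped within both neonatal treatments. The share of all genes that separate in this way was not counted. Fabp4 minus Adipoq was 2.97 ± 0.29 in SalD and 2.94 ± 0.50 in SalV, a difference of 0.03.

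**Figure D5:**
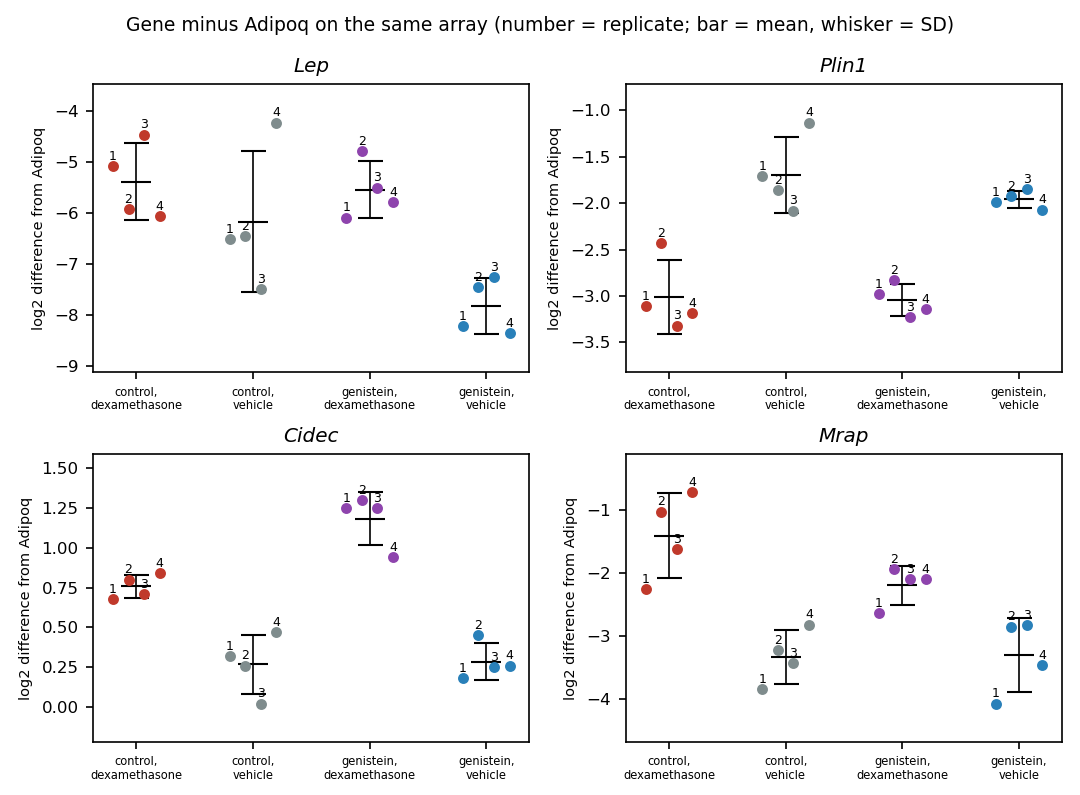
Points show the log2 difference between each of 4 genes and Adipoq on the same array, numbered by replicate, with the mean (bar) and SD (whisker) of each group of 4. Plin1 is lower, and Cidec and Mrap higher, on dexamethasone arrays than on vehicle arrays within both neonatal treatments.

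Other genes of fat cells gave a mixed picture. Of 22 further adipocyte genes tested, 6 rose and 4 fell in SalD against SalV (27.3% and 18.2%, beside 8.44% and 14.6% of all genes), and 2 rose and 2 fell in GenD against GenV (beside 2.49% and 2.79% of all genes). Cyp2e1, a cytochrome P450, rose by 5.11 on the log2 scale (SE 1.04, adjusted p = 0.00447) in SalD against SalV, and Agt, angiotensinogen, by 2.40. Klf15, a glucocorticoid-induced regulator of adipogenesis, rose by 2.42 (adjusted p = 5.07e-05) in SalD against SalV and by 2.07 (adjusted p = 0.000239) in GenD against GenV. Hcar1, the lactate receptor of adipocytes, fell by 2.12 (adjusted p = 0.00114) and by 2.41 (adjusted p = 0.000807) in the same comparisons. Klf15 and Hcar1 therefore passed the test for dexamethasone after genistein, where no member did.

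Of 17 lipogenic regulators, 2 rose and 4 fell in SalD against SalV (11.8% and 23.5%), not far from the 8.44% and 14.6% of all genes. In GenD against GenV 3 rose (17.6%, beside 2.49% of all genes). Cebpd, a C/EBP factor of early adipogenesis, rose by 1.89 (adjusted p = 8.18e-05) in SalD against SalV and by 1.76 (adjusted p = 0.000202) in GenD against GenV. Nr1h2, the oxysterol receptor LXR beta, fell by 0.85 (adjusted p = 0.00289) in SalD against SalV. Of 22 genes of triglyceride and NADPH supply, 5 rose in SalD against SalV (22.7%, beside 8.44% of all genes). In GenD against GenV 1 rose (4.55%, beside 2.49% of all genes). Lpin3, a phosphatidate phosphatase, was in both counts, at 1.44 and 1.70, and Me1, the malic enzyme that supplies NADPH, was at 1.90 in SalD against SalV.

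Of 16 genes of lipolysis control and lipid uptake, 3 rose and 2 fell in SalD against SalV (18.8% and 12.5%, beside 8.44% and 14.6% of all genes). In GenD against GenV 2 fell (12.5%, beside 2.79% of all genes). Adra2a, the antilipolytic adrenergic receptor, fell by 1.39 (adjusted p = 0.00131) and by 0.87 (adjusted p = 0.0403) in these comparisons. Of 16 genes of fatty acid oxidation, 3 rose and 4 fell in SalD against SalV (18.8% and 25%, beside 8.44% and 14.6% of all genes). In GenD against GenV 1 rose (6.25%, beside 2.49% of all genes). That gene, Pdk4, a kinase that spares glucose, was at 1.72 (adjusted p = 0.00375) in SalD against SalV and 1.40 (adjusted p = 0.027) in GenD against GenV. Of 8 brown fat genes, 1 rose and 2 fell in SalD against SalV (12.5% and 25%, beside 8.44% and 14.6% of all genes). None of them was called in GenD against GenV.

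Markers of other cells were read on the same arrays, as the median of each list's genes centred on their means. The counts called in SalD against SalV stand beside 8.44% of all genes higher and 14.6% lower. Preadipocyte and fibroblast genes lay between −0.12 and 0.12 in SalD and between −0.15 and 0.16 in SalV, and 0 of 12 passed the test. Lymphocyte genes lay between −0.94 and −0.48 in SalD and between 0.08 and 0.59 in SalV, and 6 of 12 fell. Endothelial genes lay between −0.51 and 0.09 in SalD and between 0.14 and 0.46 in SalV, and 4 of 10 fell. Uterine smooth muscle genes lay between −0.86 and 0.21 in SalD and between 0.22 and 0.73 in SalV, and 2 of 9 fell (22.2%), not far from the share of all genes. These 3 lists, and the skeletal muscle list given below, were lower on every SalD array than on every SalV array. For smooth muscle the ranges nearly touched, at 0.21 and 0.22. All genes had a median change of −0.16, and how often other sets of genes separate in this way was not counted. The part of these lists in the result was not tested.

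Epithelial genes lay between −0.64 and −0.01 in SalD and between −0.42 and 0.17 in SalV, and 1 of 10 rose. Mesothelial genes lay between −0.45 and 0.49 in SalD and between −0.43 and 0.18 in SalV, with 1 of 10 higher and 2 lower. Skeletal muscle genes lay between −0.68 and −0.26 in SalD and between −0.18 and 0.41 in SalV, with 1 of 14 higher and 3 lower. Ovarian and adrenal genes lay between −1.0 and −0.52 in SalD and between −0.64 and 0.65 in SalV, and 2 of 11 fell. Macrophage genes lay between −0.21 and 0.73 in SalD and between −0.11 and 0.01 in SalV, with 3 of 10 higher and 1 lower, Cd163, a glucocorticoid-responsive scavenger receptor, rising by 3.19 (adjusted p = 0.00111). Stromal genes lay between −0.21 and 0.42 in SalD and between −0.16 and 0.14 in SalV, with 1 of 9 higher and 1 lower. Over all genes 8.44% rose and 14.6% fell, so counts of 1 or 2 here are not read as changes of a cell type.

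In GenD against SalD, ovarian and adrenal genes lay between 0.17 and 0.67 in GenD and between −1.0 and −0.52 in SalD, and 5 of 11 rose. Lymphocyte genes lay between −0.41 and 0.19 in GenD and between −0.94 and −0.48 in SalD, and 5 of 12 rose. Skeletal muscle genes lay between 0.04 and 0.57 in GenD and between −0.68 and −0.26 in SalD, and 4 of 14 rose. Endothelial genes rose in 2 of 10 cases, smooth muscle and epithelial genes in 0 of 9 and 0 of 10, and stromal genes in 0 of 9, where 16.6% of all genes rose. Of macrophage genes 2 of 10 fell, of mesothelial genes 2 of 10, of brown fat genes 1 of 8 and of preadipocyte genes 1 of 12, where 6.39% of all genes fell. The part of these lists in the members' differences was not tested.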

How the data were processed

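Uterine RNA of 16 samples was hybridised to Agilent arrays of design 014868 in Cy3 alone. Per the file headers, the deposited values are linear spot intensity from which Feature Extraction 12.0.0.7 had subtracted background, without scaling across arrays. Version 9.5 is named in the submitters' processing notes. Outlier and background flags, per the file headers 0 or 1, served for filtering. The authors' deposited series table repeats this intensity (largest difference 0).

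Of 45018 spots an array, 1639 were controls and were left out. Outlier spots were set to missing, repeated spots averaged, and 807 probes with a missing value dropped. Probes with signal well above background on 4 or more of the 16 arrays were kept, named through RefSeq accessions (28223 of 29245 matched, GRCm38.p6 table), and the brightest stood for each gene, which left 24666 genes and targets, 16543 with a symbol. With limma 3.58.1 in R 4.3.3 (files read by the data.table package, version 1.17.8), 4 group means were fitted to log2 intensity minus each array's 75th percentile, tested two-sided and adjusted by Benjamini-Hochberg within each of 5 comparisons. The scripts were tested on simulated data. Exact permutation tests, promoter searches and figures used Python 3.11.15, pandas 2.3.3 and matplotlib 3.10.9.

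The members, gene lists and alternatives were chosen with earlier results of these data known. Genes outside the set were named by rule, at most 4 called genes of a list with the largest change. Alternatives were other normalizations, normexp correction with offset 50 (on median signals, as the files hold no mean signal), filters, the mean of a gene's probes, slide and replicate blocks, array weights and left-out arrays. The number of arrays limits the precision.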

Additional observations from a re-analysis of the deposited data

Results flagged for a closer look

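Within groups of 4 arrays, the gap between an extreme value and its nearest neighbour, as a share of the group's range, was set against Dixon's 95% critical value for 4 values. It was exceeded in 17 of 130 groups (1 gene in 1 treatment group each), where chance gives about 1 in 20. GenD array 1 was the extreme in 13 of the 17, always as the lowest. The share of the range was 0.977 for Adipoq, 0.956 for Retn, 0.987 for Cfd, 0.938 for Orm1, 0.907 for Plin1, 0.89 for Cidec and 0.969 for Fabp4. It was 0.899 for Cd36, 0.961 for Lpl, 0.957 for Mrap, 0.831 for Gpd1, 0.917 for Agpat2 and 0.854 for Car3. These genes share the array, so they are not independent observations. The lowest GenD value of Pnpla2 was also on array 1, at 3.40 against 3.55 to 3.74 on the others, and it was not singled out.

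SalV array 1 was the highest for Lep (0.856) and Plin5 (0.902), and SalV array 2 for Cidea (0.879). GenV array 4 was the highest for Elovl6 (0.833).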

How the results depend on the processing

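In SalD against SalV the 17 calls became 11 under normexp, 11 with slide as a fixed block and 4 without SalD arrays 2 and 3. With each array left out in turn they were 10 to 19, the low value without SalD array 3. Over all genes, calls were then 1116 higher and 2207 lower under normexp, and 1434 and 3185 with the slide block. They were 1095 and 2492 without SalD arrays 2 and 3, and 1410 and 2695 without SalD array 3. In GenD against GenV the 0 calls became 1 (Pnpla2) with a filter on all 16 arrays. They became 1 with the mean of kept probes and 1 with slide as a random block. Over all genes these settings gave, in that order, 731 higher and 767 lower, 608 and 641, and 645 and 720. With array weights the calls became 4 (Lep, Pnpla2, Agpat2 and Dgat2). Calls over all 24666 genes also grew there, from 614 to 2616 higher and from 689 to 3445 lower. Without GenV arrays 3 and 4 the members' calls became 2, beside 519 higher and 931 lower over all genes. Without SalD array 1 and GenD array 1, a choice made after the data were seen, they became 1 (Lep), beside 386 higher and 459 lower. They stayed 0 on leaving out each array of these groups in turn. In GenD against SalD the 5 calls became 1 under normexp, 3 with the mean of probes and 1 with slide as a fixed block. They became 2 without SalD arrays 2 and 3, and 3 to 5 with each array left out, the low value without GenD array 3. Over all genes, calls were then 2694 higher and 603 lower under normexp, 4123 and 1398 with the mean of probes, and 3916 and 2907 with the slide block. They were 2080 and 316 without SalD arrays 2 and 3, and 2525 and 770 without GenD array 3. The cause was not tested. Pnpla2 passed under all 22 alternatives in SalD against SalV and in GenD against SalD. GenV against SalV and the difference of effects had 0 calls under all settings run.

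Directions turned for Pnpla3 under normexp (−0.22 in SalD against SalV, 0.43 in GenD against SalD), for Acaca with the mean of probes (0.05 in GenD against SalD), and with the marker level as covariate, in SalD against SalV, for Scd1 (0, just below zero) and Car3 (−0.60). Labels share replicate numbers, but deviations of same-numbered arrays correlated from −0.368 to 0.378, so the numbers are not taken as pairs. With the replicate block, 16 of the 17 calls in SalD against SalV remained, Car3 being lost (3.51, adjusted p = 0.0526), and 5 in GenD against SalD. Low signals of Lep, Orm1 and Pnpla3 in SalV limit the size of their changes.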
